A study of Mus musculus with 31 samples.

Results

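Cd8a, Lck, Trbc2, Trbv12-1 and Trav14d-1 are 5 of the 15648 genes measured in the left hippocampus of 31 mice, and they are the T cell receptor and CD8 genes described here. They were chosen by their symbols, and the choice rested on their levels in CPM (counts scaled to a common library size) in these same mice, so their differences between groups are given as a description and without a test. Each library is the left hippocampus of 1 adult OT-I/Rag1−/− mouse. All mice, controls included, carry the OT-I receptor as a transgene and lack Rag1. Dorsal CA1 was injected on both sides, in rAAV-OVA mice with rAAV-hSyn-OVA-mCherry and in rAAV-control mice with rAAV-hSyn-mCherry, which carries the fluorescent marker without the antigen. The hSyn promoter drives both vectors in neurons. Each group held 4 mice at 2, 5 and 28 days after injection, and at 8 days there were 4 rAAV-OVA and 3 rAAV-control mice. All libraries of 5 and 8 days belong to batch 1, and at 2 and 28 days each group had 2 mice in each of the 2 batches.

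A T cell sees antigen through a receptor of an α and a β chain, each joined from a variable segment (Trav, Trbv) and a constant segment (Trac, Trbc). The chains sit in the membrane with the CD3 proteins. On killer T cells the coreceptor CD8, of which Cd8a encodes the α chain, binds the MHC class I molecule that presents the peptide and brings in the kinase Lck, which starts the signal. Receptor segments are normally joined by the Rag recombinase. In OT-I mice 1 ready-joined receptor for a chicken ovalbumin (OVA) peptide on H-2Kb is supplied as a transgene, and without Rag1 no other mature T cell or B cell is expected. The OT-I α chain uses a segment of the Vα2 family, which corresponds to Trav14, and its β chain a segment of the Vβ5 family, which corresponds to Trbv12. Brain tissue normally holds very few T cells.

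The sequences show what reads can and cannot tell apart. Each is the first stretch of the coding sequence in the GENCODE M21 annotation of GRCm38, of the + strand, and capitals mark the bases in which a pair differs. They give the germline segments, not the transgene, whose place in the genome the files do not hold. Trav14d-1 lies at chr14:52855614-52856166 and is shown with Trav14-1 at chr14:53554022-53554558.
Trav14d-1: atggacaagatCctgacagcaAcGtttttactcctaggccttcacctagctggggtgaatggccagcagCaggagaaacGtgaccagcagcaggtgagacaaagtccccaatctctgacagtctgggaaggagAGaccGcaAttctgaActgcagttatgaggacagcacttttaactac
Trav14-1: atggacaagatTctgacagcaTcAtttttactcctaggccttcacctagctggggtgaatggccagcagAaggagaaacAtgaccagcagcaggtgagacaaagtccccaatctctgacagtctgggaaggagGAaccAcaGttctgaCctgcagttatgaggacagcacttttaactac
These 2 stretches of 180 bases differ at 10 bases. Over the 361 to 364 coding bases that could be aligned, the 8 other Trav14 segments of the annotation are between 95.6% and 100% identical to Trav14d-1, and Trav14n-1 is identical at all 364. Counts given to Trav14d-1 therefore cannot be told from Trav14n-1 and stand for a Trav14 segment of that sequence.

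Of the β chain segments, Trbv12-1 at chr6:41113550-41114067 is shown with its nearest copy, Trbv12-2 at chr6:41118851-41119364.
Trbv12-1: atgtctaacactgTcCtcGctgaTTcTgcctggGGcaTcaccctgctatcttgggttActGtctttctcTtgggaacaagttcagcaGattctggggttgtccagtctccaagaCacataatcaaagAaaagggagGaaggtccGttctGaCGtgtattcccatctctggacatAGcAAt
Trbv12-2: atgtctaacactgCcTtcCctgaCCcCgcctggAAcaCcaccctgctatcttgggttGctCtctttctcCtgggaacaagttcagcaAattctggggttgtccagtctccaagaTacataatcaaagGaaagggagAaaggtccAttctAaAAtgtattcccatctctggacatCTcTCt
This pair differs at 24 of 180 bases and is 88.2% identical over the 372 coding bases. The constant segment Trbc2 and Trbc1, the other β constant segment, are identical over the first 259 coding bases and 95.6% identical over all 518. Reads from that first part could belong to either, and salmon, which assigned the reads, divides such reads by probability.

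Cd8a and Lck are single genes with promoters in the RefSeq table for GRCm38.p6, which has no entry for the 3 receptor segments. The windows cross the transcript start, and are shown because both genes move with the receptor in these libraries. Capitals mark a RUNX core (TGTGGT or ACCACA), an ETS core (AGGAAG or CTTCCT) or an E-box (CAGCTG), searched on both strands. None of the marked matches overlap.
Cd8a, chr6:71373177-71373476, + strand: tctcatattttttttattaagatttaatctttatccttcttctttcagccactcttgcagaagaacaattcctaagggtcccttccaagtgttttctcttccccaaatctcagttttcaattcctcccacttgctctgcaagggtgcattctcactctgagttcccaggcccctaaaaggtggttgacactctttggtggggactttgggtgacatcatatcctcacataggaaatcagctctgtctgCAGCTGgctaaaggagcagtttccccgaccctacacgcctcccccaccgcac
Lck, chr4:129573592-129573891, − strand: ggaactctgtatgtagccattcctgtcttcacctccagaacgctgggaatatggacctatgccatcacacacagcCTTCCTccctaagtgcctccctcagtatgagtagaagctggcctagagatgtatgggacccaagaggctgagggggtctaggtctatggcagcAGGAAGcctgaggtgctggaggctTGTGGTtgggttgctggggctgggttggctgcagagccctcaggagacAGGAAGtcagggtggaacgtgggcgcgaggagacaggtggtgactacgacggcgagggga
Lck, chr4:129558323-129558622, − strand: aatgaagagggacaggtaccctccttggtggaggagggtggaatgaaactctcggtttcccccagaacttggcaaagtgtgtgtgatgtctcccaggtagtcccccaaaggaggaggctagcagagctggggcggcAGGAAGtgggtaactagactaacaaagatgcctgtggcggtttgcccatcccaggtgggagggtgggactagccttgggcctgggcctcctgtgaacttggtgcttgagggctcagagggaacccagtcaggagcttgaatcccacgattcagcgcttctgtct
The Cd8a window holds 1 E-box match and 0 of the other motifs. The upstream Lck window holds 1 RUNX and 3 ETS matches, and the downstream window 1 ETS match. Of 32851 promoter windows of this length, 16.8% hold the RUNX core, 35.4% the ETS core and 16.3% the E-box, so such matches are common.

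A pair of libraries stand apart from their groups: the rAAV-control mouse D720 at 8 days, with members above the other controls, and the rAAV-OVA mouse D844 at 28 days, with members below the other rAAV-OVA mice. The main differences of the members at these days are given with and without them. Of 9 CD8 T cell marker genes 4 are in the table, Cd8a, Trbc2, Trac and Lck, of which 3 are members. Their sum at 5, 8 and 28 days was between 210 and 275, 299 and 861, and 62.1 and 1060 CPM in rAAV-OVA mice, and between 6.76 and 14.2, 9.27 and 116, and 3.16 and 12 CPM in controls.

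At 2 days the members were low in both groups, and neither vector stood out. Cd8a was at 0.207, 0.59, 0.281 and 0.255 CPM in rAAV-control mice and at 0.162, 0.257, 0.11 and 0 CPM in rAAV-OVA mice. Lck lay between 0.877 and 1.43 CPM, Trbc2 between 1.35 and 5.58, Trbv12-1 between 0.379 and 1.06, and Trav14d-1 between 4.04 and 7.12 over the 8 mice. The groups overlapped for all 5 members, where 2.22% of all genes were higher in every rAAV-OVA mouse than in every rAAV-control mouse. Group means of Trav14d-1 were 6.02 ± 0.787 CPM in rAAV-control and 4.97 ± 0.983 CPM in rAAV-OVA mice (SD, n = 4 each), and those of Trbv12-1 were 0.775 ± 0.195 and 0.531 ± 0.132 CPM. The Log2FC lay between −1.59 (SE 1.21) for Cd8a and −0.28 (SE 0.685) for Trav14d-1. Few reads stand behind these Cd8a values, since at 2 days the rAAV-control libraries held between 6 and 17 Cd8a counts and the rAAV-OVA libraries between 0 and 7.

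At 5 days after injection all 5 members were higher in every rAAV-OVA mouse than in every rAAV-control mouse. For Cd8a the rAAV-OVA mice D725, D726, D786 and D787 had 42.3, 43.2, 46.2 and 32.02 CPM, and the controls 0.134, 1.35, 0.371 and 0.108 CPM. Trbc2, the β constant segment, had 93.9, 110, 86.0 and 65.8 CPM in the same rAAV-OVA mice and at most 1.97 CPM in controls. Trbv12-1, which recognises antigen together with the α chain, had 37.7, 41.7, 32.9 and 24.2 CPM, and at most 0.84 CPM in controls. Mouse D787 was the lowest of the 4 for each of these 3 genes. Lck was at 24.5, 23.5, 23.9 and 17.4 CPM, with the controls between 0.94 and 1.68 CPM. Trav14d-1 was at 76.9, 73.0, 85.2 and 72.9 CPM, with the controls between 2.24 and 8.11 CPM. At 5 days, 21% of all genes were separated in this way. In bulk tissue, fewer T cells and less RNA per T cell cannot be told apart. The Log2FC was 5.45 (SE 0.65) for Cd8a, 5.23 (SE 0.629) for Trbv12-1, 4.85 (SE 0.617) for Trbc2, 3.35 (SE 0.394) for Lck and 3.22 (SE 0.73) for Trav14d-1. These values come from a fit with 2 surrogate variables, and without them they were 6.47, 6.25, 5.85, 4.24 and 4.12.

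**Figure D1:**
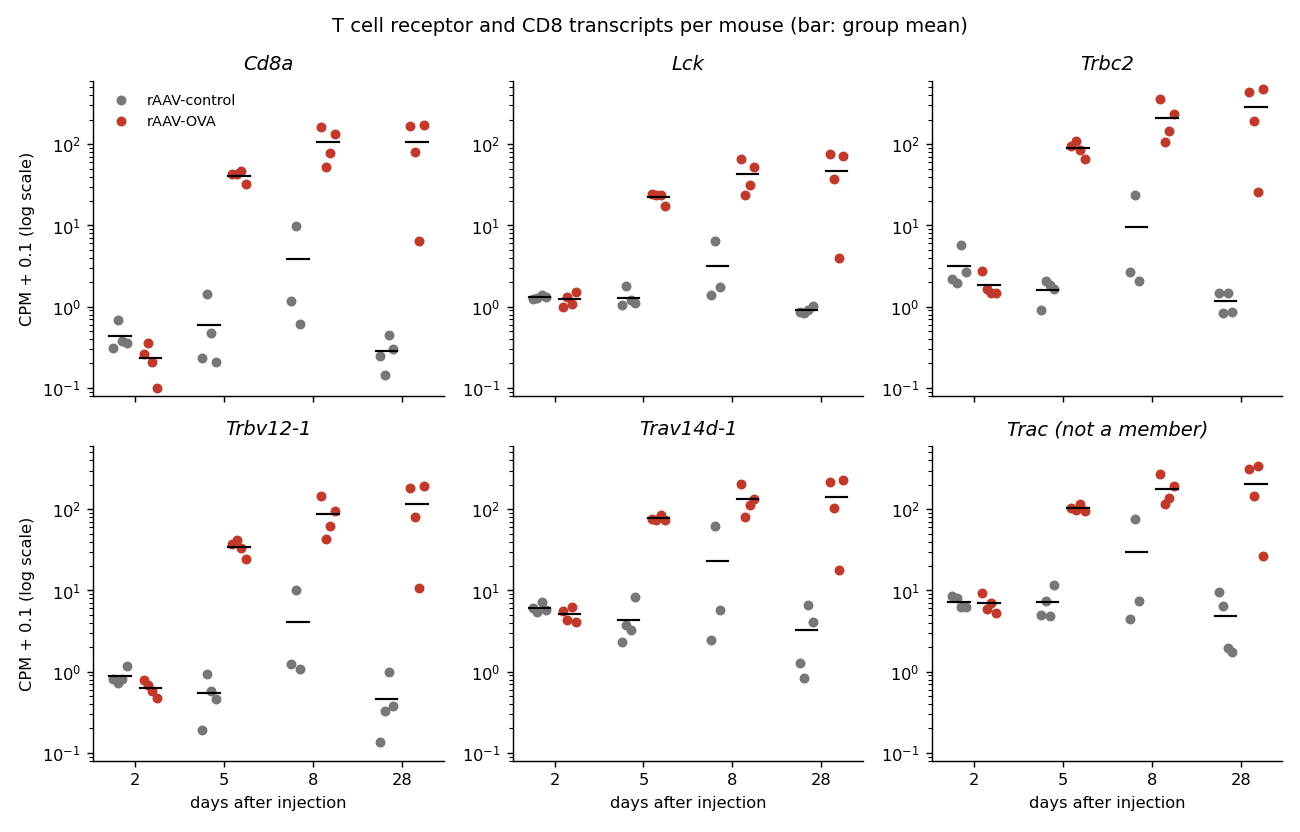
CPM plus 0.1 (log scale) of the 5 members and of the α constant segment Trac in each of 31 mice against days after injection, with grey points for rAAV-control, red points for rAAV-OVA and a black bar for the group mean. Both groups lie together at 2 days and apart at 5, 8 and 28 days. The rAAV-control mouse D720 stands above its group at 8 days, and the rAAV-OVA mouse D844 below its group at 28 days.

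At 8 days the rAAV-OVA mice D700, D701, D702 and D703 had 163, 52.0, 77.6 and 135 CPM of Cd8a. The rAAV-control mice D696, D720 and D722 had 1.09, 9.73 and 0.517 CPM. Mouse D720 was the highest control for every member, with 6.32 CPM of Lck, 23.5 of Trbc2, 9.91 of Trbv12-1 and 61.5 of Trav14d-1, where the other controls of that day had at most 1.67, 2.59, 1.13 and 5.61 CPM. The rAAV-OVA mice had 66.5, 23.6, 31.5 and 52.5 CPM of Lck and 360, 106, 146 and 232 CPM of Trbc2. Trbv12-1 was at 145, 42.9, 62.4 and 94.9 CPM and Trav14d-1 at 203, 81.2, 111 and 135 CPM. All 5 members were again higher in every rAAV-OVA mouse than in every control, as were 14.4% of all genes. The Log2FC was 5.15 (SE 0.645) for Cd8a, 3.77 (SE 0.419) for Lck, 4.59 (SE 0.631) for Trbc2, 4.61 (SE 0.599) for Trbv12-1 and 2.92 (SE 0.751) for Trav14d-1. Without D720 these values were 6.23, 4.17, 5.79, 5.64 and 4.73. Over all 13 other settings they ran from 4.09 to 6.86, 3.09 to 4.62, 3.70 to 6.33, 3.70 to 6.15 and 2.03 to 5.08, in the same order of genes.

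At 28 days the rAAV-OVA mice spread widely. Cd8a was at 168, 79.1 and 171 CPM in D661, D667 and D845 but at 6.28 CPM in D844, which was still above the highest control of 0.346 CPM. D844 was also the lowest rAAV-OVA mouse for the other members, with 3.90 CPM of Lck, 25.6 of Trbc2, 10.8 of Trbv12-1 and 17.6 of Trav14d-1. The other 3 mice had 74.8, 37.5 and 70.6 CPM of Lck, 445, 193 and 482 CPM of Trbc2, 183, 80.9 and 191 CPM of Trbv12-1, and 218, 105 and 232 CPM of Trav14d-1. The rAAV-control mice reached at most 0.922 CPM of Lck, 1.39 of Trbc2, 0.885 of Trbv12-1 and 6.54 of Trav14d-1. All 5 members were higher in every rAAV-OVA mouse than in every control, as were 15% of all genes. The Log2FC was 7.27 (SE 0.779) for Cd8a, 6.80 (SE 0.687) for Trbv12-1, 6.65 (SE 0.684) for Trbc2, 4.51 (SE 0.438) for Lck and 4.37 (SE 0.782) for Trav14d-1. Without D844 these values were 7.81, 7.29, 7.03, 5.12 and 5.02, and without surrogate variables 9.10, 8.32, 8.04, 5.84 and 5.51. Within batch 1 alone Cd8a differed by 10.2 (SE 0.676) and Trav14d-1 by 7.42 (SE 0.522) on the Log2FC scale, and within batch 2, which holds D844, by 8.30 (SE 2.21) and 4.55 (SE 1.47), both from 2 mice a group.

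From 5 to 8 days the mean of Cd8a in rAAV-OVA mice went from 41.0 ± 6.18 to 107 ± 51.0 CPM (SD, n = 4 each), and every mouse at 8 days lay above every mouse at 5 days. Trbv12-1 had the same order, from 34.1 ± 7.54 to 86.3 ± 44.5 CPM. Lck, Trbc2 and Trav14d-1 overlapped between these days, so 2 of 5 members were separated, against 6.41% of all genes. The Log2FC of 8 against 5 days ran from 1.12 (SE 0.619) for Trav14d-1 to 1.91 (SE 0.466) for Cd8a. Between 8 and 28 days all 5 members overlapped (3.11% of all genes did not and were higher at 28 days), and so they did between 5 and 28 days (8.11%). The Log2FC of 28 against 8 days lay between −0.48 (SE 0.459) for Cd8a and 0.20 (SE 0.469) for Trbc2, and its sign was not stable. Without D844 it lay between −0.46 (SE 0.443) for Cd8a and 0.20 (SE 0.466) for Trbc2, and over 14 other settings each member took the other sign in 1 to 7. That negative value stands beside 168, 79.1 and 171 CPM of Cd8a in the mice left at 28 days and a mean of 107 at 8 days. The first surrogate variable of the main fit ran in reverse order of Cd8a at 8 days, from −0.22 in D700 to 0.256 in D701. At 28 days it was 0.131 in D844 and between −0.224 and −0.117 in the others. At 5 days it did not follow Cd8a. Whether it took up T cell level was not tested. The Log2FC of 28 against 5 days was between 0.95 (SE 0.603) for Trav14d-1 and 1.88 (SE 0.444) for Trbv12-1, and without D844 between 1.09 (SE 0.639) and 1.85 (SE 0.41) for the same genes. Means at 28 days were 106 ± 79.0 CPM for Cd8a, 46.7 ± 33.1 for Lck, 286 ± 216 for Trbc2, 116 ± 86.4 for Trbv12-1 and 143 ± 101 for Trav14d-1. At 28 days D844 lay below every mouse of 5 and 8 days for all 5 members, and the other 3 mice above every mouse of 5 days.

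Because 2 genes of 1 library share its depth, the ratio of their counts asks whether the members kept their proportions. No ratio was used to choose the genes, but ratios come from the same counts as the levels that were. Their p-values are therefore not independent of that choice and serve as a description. The 12 rAAV-OVA mice of 5, 8 and 28 days were compared by an exact permutation test of all 34650 ways to assign 4 mice to each day. Its statistic, the sum of squares between days, has no direction and does not say which day differs. For Trbc2 over Cd8a the ratios were 2.22, 2.54, 1.86 and 2.06 at 5 days, 2.21, 2.04, 1.89 and 1.73 at 8 days and 2.64, 2.44, 4.07 and 2.82 at 28 days. Of the earlier mice only D726, at 2.54, exceeded the lowest ratio of 28 days, and the days differed (exact permutation p = 0.00848, adjusted p = 0.017 over the 4 ratios to Cd8a). Trbv12-1 over Cd8a behaved alike, with geometric means of 0.825, 0.803 and 1.21 at 5, 8 and 28 days and no overlap of 28 days with the earlier days (exact permutation p = 0.00485, adjusted p = 0.017). Cd8a and Trbv12-1 met the authors' count filter, described below, only through rAAV-OVA mice of 5 days or later, a further limit on these p-values. In these ratios more β chain counts per Cd8a count were measured at 28 days, an order that the test itself does not give. With batch 1 alone, which leaves 2 mice at 28 days, neither ratio passed (exact permutation, adjusted p = 0.087 for both).

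Lck over Cd8a was between 0.516 and 0.579 at 5 days, between 0.39 and 0.454 at 8 days and between 0.413 and 0.622 at 28 days. The 8-day ratios lay below all 5-day ratios, and the days differed (exact permutation p = 0.0305, adjusted p = 0.0406), but leaving out 1 mouse at a time gave an adjusted p from 0.00693 to 0.0919, above 0.05 in 9 of 12 cases. Trav14d-1 over Cd8a was between 1.69 and 2.28 at 5 days, between 1.01 and 1.56 at 8 days and at 1.30, 1.33 and 1.36 in 3 mice at 28 days, with 2.80 in D844. Across all 12 mice the days did not pass the test (exact permutation p = 0.168, adjusted p = 0.168). Without D844 they did (exact permutation, adjusted p = 0.0163).

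The 2 variable segments of the receptor changed against each other. Trbv12-1 over Trav14d-1 was 0.491, 0.571, 0.386 and 0.332 at 5 days, 0.714, 0.529, 0.560 and 0.701 at 8 days and 0.839, 0.771, 0.611 and 0.822 at 28 days. The geometric means were 0.435, 0.62 and 0.755, and the days differed (exact permutation p = 0.00745, tested on its own). This p-value carries the limits given for the ratios to Cd8a, from the choice of the genes and from the count filter on Trbv12-1. All 4 mice at 28 days lay above all 4 mice at 5 days. With the median CPM of the rAAV-control mice of the same day subtracted from both genes, a step chosen after seeing the data, the means were 0.45, 0.641 and 0.789 (exact permutation p = 0.00329).

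**Figure D2:**
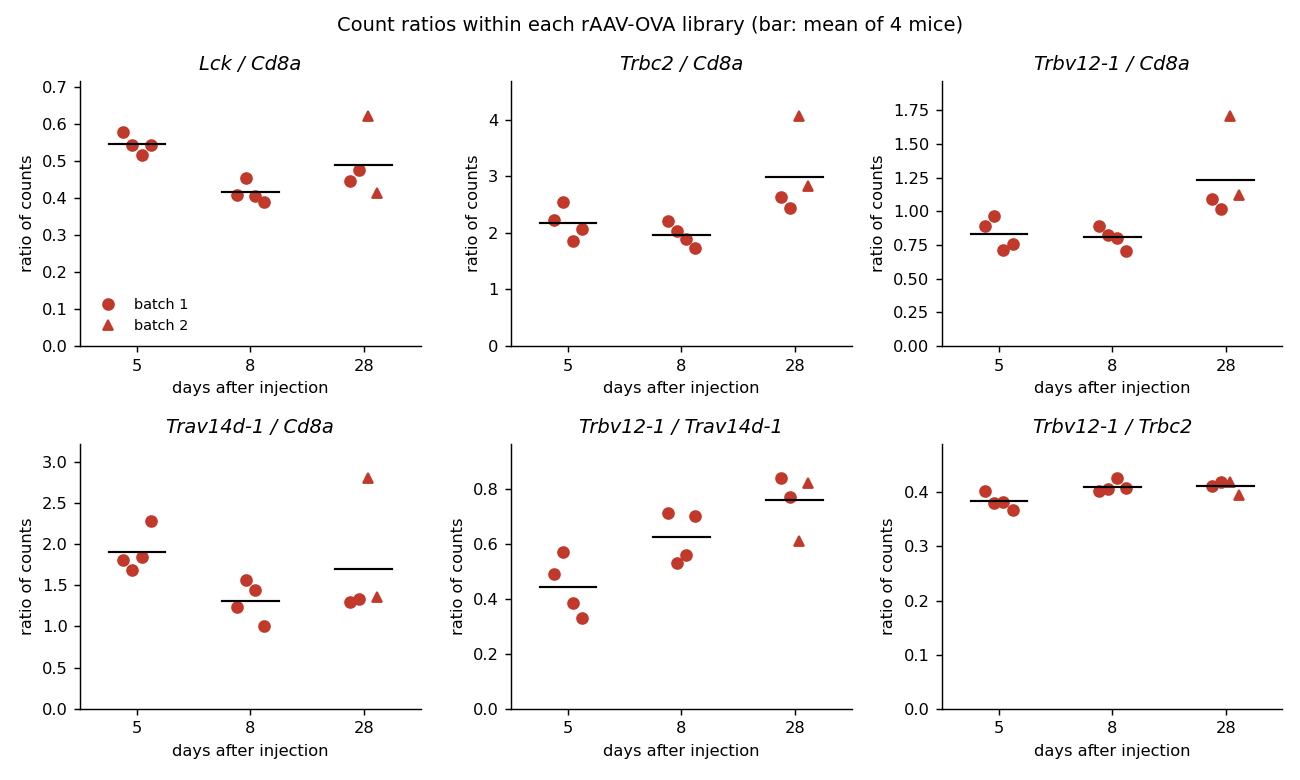
Ratio of counts between members in each of the 12 rAAV-OVA libraries of 5, 8 and 28 days against days after injection, with circles for batch 1, triangles for batch 2 and a black bar for the mean of 4 mice. Trbv12-1 over Trbc2 stays between 0.368 and 0.426, Trbv12-1 over Trav14d-1 is highest at 28 days, and D844 is the top triangle for the ratios to Cd8a.

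Both segments of the β chain stayed in nearly the same proportion in the 12 rAAV-OVA mice of 5 days and later. Trbv12-1 over Trbc2 was between 0.368 and 0.426 in them, with 0.42 in D844, and 0.422 in the control mouse D720. In the other 18 mice, whose counts are low, it was between 0.039 and 0.644 with a median of 0.344. Over those 12 mice Pearson's r of log2 CPM was 0.999 for this pair and between 0.954 and 0.995 for the other 9 pairs of members, a description of libraries that share days and depth. Trac, the α constant segment, is in the table without a symbol and was found by its gene identifier. Trav14d-1 over Trac was between 0.671 and 0.811 in the 12 mice, 0.803 in D720 and between 0.452 and 0.981 in the other 18 mice. Trac itself had 105, 99.2, 115 and 94.3 CPM at 5 days, 272, 118, 137 and 192 CPM at 8 days and 313, 144, 26.3 and 338 CPM at 28 days in rAAV-OVA mice.

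Between chains the proportion was not the same in all mice. Trav14d-1 over Trbc2 was between 0.482 and 1.11 in the 12 rAAV-OVA mice of 5, 8 and 28 days, and 2.61 in D720. In the other 18 mice it was between 0.844 and 5.23, with a median of 2.74. Trac over Trbc2 gave the same picture, between 0.701 and 1.43 in the 12 mice, 3.25 in D720 and a median of 3.34 in the 18. D720 and D844 show this best, since their β chain and CD8 levels were close, with Trbc2 at 23.5 and 25.6 CPM and Cd8a at 9.73 and 6.28 CPM, while Trav14d-1 was at 61.5 CPM in D720 and 17.6 CPM in D844. The ratio of Trav14d-1 to Cd8a was 6.31 in D720 and at most 2.80 in the 12 rAAV-OVA mice. These groups of mice were set side by side after their values were seen, and the difference was not tested.

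**Figure D3:**
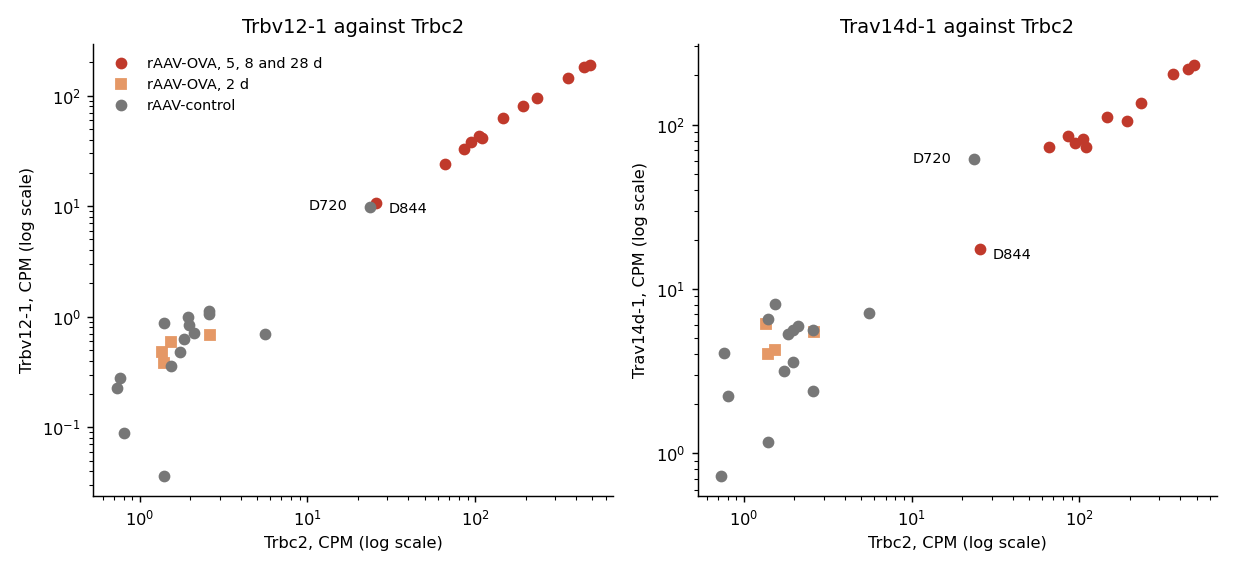
CPM of Trbv12-1 (left) and Trav14d-1 (right) against CPM of Trbc2, both axes on a log scale, 1 point per mouse, with red circles for rAAV-OVA at 5, 8 and 28 days, orange squares for rAAV-OVA at 2 days and grey circles for rAAV-control. The rAAV-control mouse D720 and the rAAV-OVA mouse D844 lie together on the left, at 9.91 and 10.8 CPM of Trbv12-1, and apart on the right, at 61.5 and 17.6 CPM of Trav14d-1.

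The other genes of the receptor and its signalling path come from a list of 66 genes, of which 46 are in the table. Cd3d, Cd3e, Cd3g, Cd247, Cd8b1 and Trbc1 are not among them and were not analysed here. The edgeR quasi-likelihood test was adjusted over all 15648 genes, and a call needed an FDR of 0.05 or less together with a Log2FC of 0.66 or more in either direction. At 2 days 0 of 46 genes were called by edgeR, DESeq2 or limma voom, 6 had an unadjusted p under 0.05 in edgeR, and 0% of all genes were called higher and 0% lower. At 5 days 25 of 46 rose and 0 fell, against 9.63% and 4.72% of all genes. At 8 days 31 rose and 0 fell, against 9.32% and 0.569%, and at 28 days 31 rose and 2 fell, against 12.8% and 4.88%. The median Log2FC of the list was 1.35, 2.01 and 1.77 at 5, 8 and 28 days, where that of all genes was −0.0123, −0.0298 and 0.0127. In the fit of all mice without surrogate variables 31 rose at 8 days as well, but with the 7 mice of that day alone, also without covariates, 0 of 46 passed. Without the control D722 18 rose at 8 days, while without D720 32 did. At 28 days batch 1 alone gave 27 higher and 0 lower, and batch 2 alone, with 2 mice a group and D844 among them, gave 0 in both directions.

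The receptor and coreceptor subgroup holds 4 measured genes, of which Cd6, Trac and Cd7 rose at 5, 8 and 28 days. Cd6 and Cd7 met the authors' count filter only through the rAAV-OVA mice of 5 days or later, so their calls are partly set by it, and Trac met it without them. Cd6, a receptor on T cells that tunes the signal, was at 25.9 against 0.252 CPM at 28 days (Log2FC 5.30, SE 0.711, edgeR FDR 4.3e-05). Trac followed at 205 against 4.82 CPM (Log2FC 4.26, SE 0.713, edgeR FDR 0.00026). Cd7 was at 3.62 against 0.33 CPM (Log2FC 2.62, SE 0.713, edgeR FDR 0.0073) and overlapped between the groups at 28 days. Thy1, a T cell surface marker that neurons also express in quantity, was not called, with Log2FC between −0.42 and −0.24 at the 3 time points, below the size a call needed.

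Of 17 measured proximal kinases, phosphatases and adaptors, 11, 12 and 11 rose at 5, 8 and 28 days and 0 fell. Ptpn22, a phosphatase that counters Lck, was at 28.5 against 0.631 CPM at 28 days (Log2FC 4.23, SE 0.577, edgeR FDR 4.6e-05), with the same limit from the filter. Ptprc, the phosphatase CD45 carried by nearly all blood leukocytes, was at 147 against 4.84 CPM (Log2FC 3.96, SE 0.649, edgeR FDR 0.00024). Fyn, a relative of Lck that the brain also makes, was not called, with a Log2FC of 0.01 at 28 days.

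Among 16 distal signalling genes 7, 10 and 10 rose at 5, 8 and 28 days. Rac2, a GTPase of blood cells, was at 90.6 against 3.16 CPM at 28 days (Log2FC 3.78, SE 0.653, edgeR FDR 0.00033), and Was, which drives actin assembly in them, at 18.4 against 1.37 CPM (Log2FC 2.87, SE 0.451, edgeR FDR 0.00016). Rasgrp1 and Ppp3ca, both also abundant in neurons, were the 2 that fell at 28 days. Rasgrp1 was at 353 against 741 CPM (Log2FC −1.25, SE 0.162, edgeR FDR 2.7e-05) and Ppp3ca at 924 against 1578 CPM (Log2FC −0.79, SE 0.176, edgeR FDR 0.0019). Of 6 neuronal marker genes 4 fell at the same time point, and their part in this was not tested.

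Of 9 T cell transcription factors measured, 4, 6 and 7 rose at 5, 8 and 28 days. Runx3, which sets up the CD8 lineage, was at 13.02 against 0.091 CPM at 28 days (Log2FC 6.10, SE 0.968, edgeR FDR 0.00019), again with that limit. Tcf7, which maintains naive and memory T cells, was at 85.4 against 2.63 CPM (Log2FC 4.32, SE 0.517, edgeR FDR 1.5e-05), and Ikzf1, a regulator of lymphoid cells, at 81.6 against 5.61 CPM (Log2FC 2.89, SE 0.467, edgeR FDR 0.00021). Not all list genes are specific to T cells. In rAAV-control mice at 2 days, with Cd8a at 0.333 CPM, Ikzf1, Ptprc and Rac2 were at 14.2, 22.3 and 24.3 CPM. Runx3 and Tcf7 were at 1.58 and 2.60 CPM there. The share of other cells in the rise of the list was not tested.

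**Figure D4:**
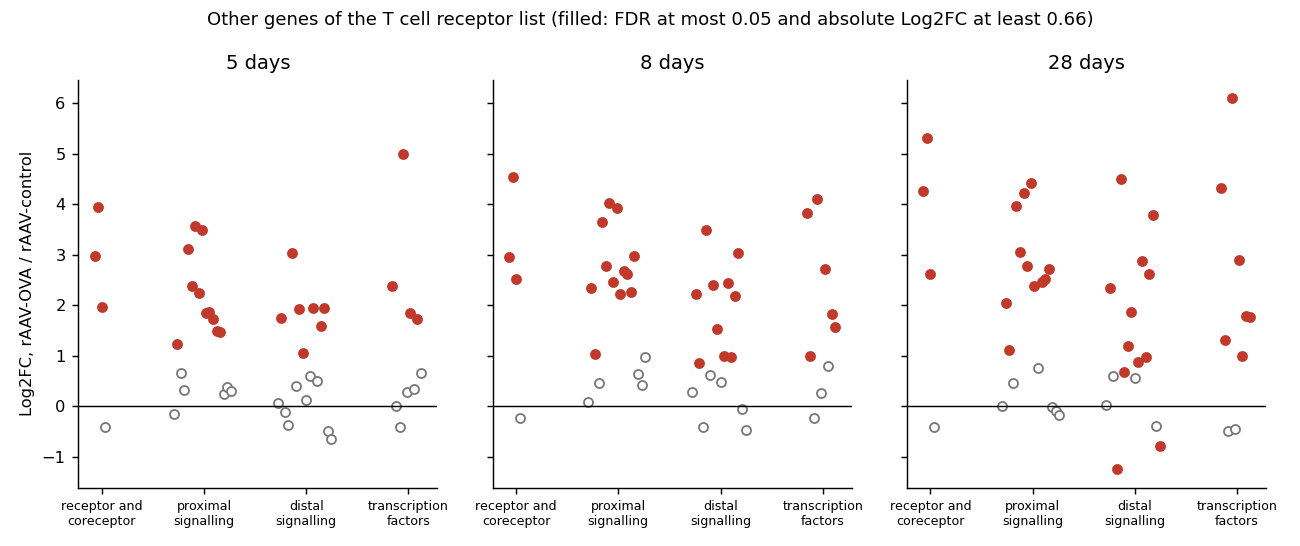
Log2FC of rAAV-OVA against rAAV-control for the 46 measured list genes at 5, 8 and 28 days, by subgroup, 1 point per gene. Filled red points were called and open points were not. At 28 days 31 filled points lie above 0 and 2 below.

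Days were also compared within the rAAV-OVA mice. From 5 to 8 days 2 of 46 genes rose, Lef1 and Prkcq, against 0.991% of all genes, and 0 fell, against 1.11%. In this contrast 17 of 46 had an unadjusted p under 0.05 and the median Log2FC was 0.57, against 0.032 for all genes. DESeq2 called 7 and limma voom 9, and leaving out 1 mouse at a time in edgeR gave 0 to 5. From 8 to 28 days 0 of 46 were called by edgeR, with 6 at an unadjusted p under 0.05 and 1 called by limma voom, against 2.36% of all genes called higher and 0.498% lower. From 5 to 28 days 9 rose, against 7.69%, and 1 fell, against 3.46%, with 20 at an unadjusted p under 0.05. Tcf7, with the largest Log2FC of the 9, was at 85.4 CPM at 28 days and 21.8 CPM at 5 days (Log2FC 2.02, SE 0.415, edgeR FDR 0.0013), though the mice of these days overlapped. Lef1, a partner of Tcf7, was at 14.1 against 5.46 CPM without overlap (Log2FC 1.35, SE 0.264, edgeR FDR 0.00089). Tox, a factor of chronically stimulated T cells, was at 21.4 against 9.61 CPM without overlap (Log2FC 1.09, SE 0.293, edgeR FDR 0.01). Tox also had 8.88 CPM at 5 days and 12.97 CPM at 28 days in rAAV-control mice. At the same days Lef1 had 5.34 and 5.53 CPM in controls, Prkcq 15.07 and 16.75 CPM, and Tcf7 2.90 and 2.63 CPM. Whether these rises between days came from T cells or from other cells was not tested. The 10 calls between 5 and 28 days became 14 without D844, 18 without D720 and D844, 6 without D661 or without D845, 6 without surrogate variables and 5 with the batch label in their place.

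The table itself bears on these counts, because the authors kept a gene only where 15 or more mice had 15 or more counts, and 12 of the 31 are rAAV-OVA mice of 5 days or later. Lck, Trbc2 and Trav14d-1 had 15 counts in all 31 mice. Cd8a had them in 4 of the other 19 mice and Trbv12-1 in 12 of 19, so 3 of the 5 members would have passed on the other mice alone. Of the 46 list genes 40 would have, and among these 19, 25 and 25 rose at 5, 8 and 28 days. The other 6, Cd6, Cd7, Ptpn22 and Runx3 among them, needed the rAAV-OVA mice to be in the table, so that their calls are partly set by the filter.

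Genes most like the members were found by Pearson's r of log2 CPM (prior count 2) with the mean of the 5 members over the 12 rAAV-OVA mice of 5, 8 and 28 days. Ptprcap, the protein bound to CD45, came first (r = 0.996), followed by Irag2 (0.995), Cd6 (0.991), Trac (0.991), Skap1 (0.990), Zap70 (0.990), Ubash3a (0.989) and Sigirr (0.986). Zap70 is the kinase that Lck switches on. Ptprcap went from a mean of 0.382 CPM over the 15 rAAV-control mice to 9.85, 19.7 and 22.7 CPM in rAAV-OVA mice at 5, 8 and 28 days, with 1.86 CPM in D844. Over the 19 other mice the gene most like Trav14d-1 was Trac (r = 0.976, and 0.953 without D720), and after it, ranked without D720, came Adora3 (0.899), Mx1 (0.878), H2-Q7 (0.848) and H2-D1 (0.845), the last of which is an MHC class I heavy chain. This second list was drawn up after the values were seen, and both are descriptions of libraries that share days and batches.

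Markers of other cells differed between the vectors as well, but did not all follow the members over the days. Of 6 monocyte genes 5 (Ccr2, Ly6c2, Ms4a4c, Plac8 and Chil3) met the authors' count filter only through the rAAV-OVA mice of 5 days or later, so a count of those that rose says little. The other, Itgal, an integrin that T cells also carry, rose from 1.61 to 73.6 CPM at 5 days, 7.94 to 87.6 CPM at 8 days and 1.32 to 77.7 CPM at 28 days. The summed level of the 6 was between 247 and 409 CPM in rAAV-OVA mice at 5 days, 121 and 418 at 8 days and 8.65 and 218 at 28 days, against 1.21 to 9.32, 4.34 to 68.3 and 1.74 to 3.39 CPM in controls. Between days in rAAV-OVA mice 0 of the 6 rose and 3 fell from 8 to 28 days, as from 5 to 28 days. Ly6c2 went from 79.2 CPM at 8 days to 14.8 CPM at 28 days (Log2FC −3.07, edgeR FDR 0.011), Plac8 from 50.4 to 13.4 CPM (Log2FC −2.48, edgeR FDR 0.017) and Chil3 from 6.95 to 0.581 CPM (Log2FC −3.74, edgeR FDR 0.0017). Klrk1 and Gzma, the 2 of 7 natural killer genes in the table, are also made by killer T cells and met the filter in the same way. Their summed level was between 20.3 and 34.8, 17.8 and 48.2, and 1.07 and 30 CPM in rAAV-OVA mice at 5, 8 and 28 days, and at most 0.767, 8.43 and 0.539 CPM in controls. Gzma fell from 8 to 28 days, from 8.48 to 3.03 CPM (Log2FC −1.71, edgeR FDR 0.043), and Klrk1 was not called. Of 8 genes of other T cells 2 are in the table. Trdc, the constant segment of the δ chain, also met the filter only through those mice, and its means were 3.60, 7.31 and 5.76 CPM in rAAV-OVA mice and 0.474, 0.612 and 0.336 CPM in controls. Sox13 was not called at 5 days (6.73 against 7.78 CPM) or 8 days (7.21 against 8.00 CPM) and rose at 28 days (11.8 against 7.32 CPM). Of 8 B and plasma cell genes 2 are in the table. Cd79b, which met the filter only through the rAAV-OVA mice of 5 days or later, was not called at 5 days (0.96 against 0.439 CPM) or 8 days (1.29 against 0.467 CPM) and was higher at 28 days (1.88 against 0.159 CPM, edgeR FDR 0.0024). Ighm, an immunoglobulin constant segment and the only other such row, was at 15.4 and 40.9 CPM at 5 days without a call and rose at 8 days (20.6 to 57.4 CPM) and 28 days (8.96 to 52.6 CPM). Without Rag1 no other mature T cell or B cell is expected in these mice. Counts of a constant segment such as Trdc or Ighm do not show that a receptor was joined. The rises of Trdc, Sox13, Cd79b and Ighm are therefore not evidence of such cells, and their source was not tested. Of 6 neuronal markers 2, 0 and 4 fell at 5, 8 and 28 days, against 4.72%, 0.569% and 4.88% of all genes. Their part in the levels of the members was not tested. Rag1 had between 3.77 and 7.63 CPM in all 31 libraries, and counts do not tell a disrupted transcript from an intact one.

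Depth was ample for the members where they were high. Libraries held between 19046977 and 57407902 counts, with a median of 27024978. The ratios of rAAV-OVA mice at 5 days and later rest on 182 to 4982 Cd8a counts per library, with 182 in D844. In the other 19 mice Cd8a had between 0 and 217 counts, so its ratios there carry large counting error.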

How the data were processed

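RNA of the left hippocampus of 31 mice was sequenced as poly(A) libraries. The deposited values are estimated counts per gene, which the authors made with fastp, Salmon 1.8.0 and the GENCODE M29 annotation, summarised with tximeta and filtered to genes with 15 counts in 15 mice; their methods name DESeq2 1.36.0 for testing. The table holds them as whole numbers, and 0 rows lacked a gene identifier. 815 of 824 genes without a symbol were named by identifier.

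CPM used TMM library sizes. All 31 mice in 8 groups were fitted in edgeR 4.0.16 (R 4.3.3) with 2 surrogate variables from sva 3.50.0, and tested by quasi-likelihood with Benjamini-Hochberg adjustment over 15648 genes. Ratios were taken on counts plus 0.5 and tested by exact permutation over mice. The members, and the T cell receptor and cell type lists (CD8 T, other T, NK, B and plasma cell, monocyte, neuron), were chosen with earlier results of these data known. At most 3 called genes per subgroup were named, those with the largest Log2FC at 28 days; Thy1, Fyn and the genes named between days were added after their values were seen. Some items the rule would name are not reported here. Alternatives used DESeq2 1.42.0 and limma 3.58.1. The fit was tested on simulated data. Library totals ranged from 19046977 to 57407902 counts.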

Additional observations from a re-analysis of the deposited data

Results flagged for a closer look

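Of 57 groups of 4 mice examined, 4 held a mouse far from the other 3 by Dixon's criterion at 95%, where chance gives about 1 in 20 groups. Lck at 5 days was 17.4 CPM in the rAAV-OVA mouse D787 and between 23.5 and 24.5 CPM in the other 3. Trbc2 at 2 days was 2.63 CPM in the rAAV-OVA mouse BEC-B541 and between 1.35 and 1.54 CPM in the others. At 28 days the rAAV-OVA mouse D844 stood apart in 2 ratios, with 1.71 for Trbv12-1 over Cd8a against 1.02 to 1.12, and 2.8 for Trav14d-1 over Cd8a against 1.3 to 1.36. These ratios of D844 rest on 182 Cd8a counts.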

How the results depend on the processing

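No paired analysis was possible because every mouse has a replicate name of its own. Of 228 list counts and ratio tests recomputed under other settings, 182 stayed within 1.5 times the count or on the same side of the threshold. Of 425 Log2FC of members, 13 moved by over 1 SD, 10 of them for Lck, Trbc2 and Trav14d-1 at 5 days, and none of the differences from control at 5, 8 and 28 days changed sign; of the 14 settings for 28 against 8 days, 1 to 7 did. From 5 to 8 days, where 2 list genes were called, DESeq2 gave 7, limma voom 9, DESeq2 size factors 4, no surrogate variables 0, the batch label 1, a mean of 1 CPM 0, FDR alone 4 and leaving out D720 and D844, chosen after seeing the data, 8. From 8 to 28 days, with 0 called, limma voom and FDR alone gave 1 each. From 5 to 28 days, with 10 called, no surrogate variables gave 6, the batch label 5 and leaving out D720 and D844 18. At 28 days 2 list genes were lower, against 5 by FDR alone, 1 with the mice of the day alone and no covariates and 0 in either batch alone; 31 were higher, against 0 in batch 2 alone. At 8 days 31 were higher, against 0 with the mice of the day alone and no covariates. With each mouse left out, the counts ran from 18 to 32 at 8 days, 1 to 2 lower at 28 days, 0 to 5 from 5 to 8 days, 0 to 1 from 8 to 28 days and 6 to 14 from 5 to 28 days. In batch 1 alone the exact permutation gave adjusted p = 0.087 for Trbc2 and for Trbv12-1 over Cd8a and 0.0356 for Trav14d-1. With Trbc2 as the reference gene it gave 0.0218 for Trav14d-1. With each mouse left out the adjusted p was 0.00693 to 0.0919 for Lck and 0.0163 to 0.34 for Trav14d-1. The cause was not tested for any of these. Depth limits the ratios of mice with few Cd8a counts.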
